A study of Mus musculus with 12 samples.

Results

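The genes described here encode secreted products of Paneth cell granules: Lyz1, Mmp7, Itln1, Mptx1, Mptx2, Ang4, Spink4, Pla2g2a and Pnliprp2. Their probe sets were those whose platform annotation names exactly 1 gene, that gene being among these 9. This gave 9 probe sets for 8 of the 9 genes, of 21408 genes and 23991 probe sets on the arrays. Mmp7 had 2 probe sets, and Itln1, an intelectin that binds bacterial sugars, was not analysed here.

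Small intestine was taken on day 14 after transplantation from BALB/c mice of wild-type genotype, and RNA from it was hybridised to Affymetrix arrays. Every mouse had been irradiated and given bone marrow and T cells of C57BL/6N donors, so both groups share the allogeneic transplant, and no mouse without a transplant is part of the comparison. Transplants of this kind model graft-versus-host disease, the attack of donor T cells on host tissue. The TUDCA group (6 arrays) had daily intraperitoneal injections of 200 mg/kg tauroursodeoxycholic acid, a taurine-conjugated bile acid, and the vehicle group (6 arrays) the same volume of 200 µl of vehicle. The labels give no age and do not tie samples to single mice, so p-values measure the spread between these samples only.

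Paneth cells lie at the base of the small intestinal crypts, beside the stem cells, and release granules of antimicrobial proteins into the crypt lumen. Lysozyme, the group IIA phospholipase A2 and angiogenin 4 damage or bind microbes, and matrilysin (Mmp7) cuts the alpha-defensin precursors into active peptides. Loss of Paneth cells is a known feature of intestinal graft-versus-host disease. Spink4 and Ang4 are also made by goblet cells, the mucus-secreting cells of the same lineage. In RNA of whole tissue, fewer cells of a type and less RNA per cell cannot be told apart.

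The samples carry numbers in a low and a high range. The low range holds vehicle replicates 1 to 4 and TUDCA replicates 1 and 2, and the high range holds vehicle replicates 5 and 6 and TUDCA replicates 3 to 6. Their meaning is not given, and every difference was estimated with the range as a term. The description field names reticular cells where all other fields name small intestine. None of 8 reticular cell markers differed between the groups after adjustment, which does not bear on the tissue the RNA came from. Their mean log2 value lay between 6.76 and 7.18 on every array, and single markers averaged from 4.55 to 9.33. The mean of 9 enterocyte markers lay between 10.66 and 11.12. Paneth cell transcripts were high in the same RNA, with log2 means over all arrays of 11.07 for Defa35 and 11.29 for Lyz1.

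The 2 vehicle arrays of the high range stood at opposite ends for these genes. Vehicle replicate 5 was the highest vehicle array in 6 of the 9 probe sets and in 8 of 10 alpha-defensin probe sets. Vehicle replicate 6 was the lowest in 5 and in 5. For Lyz1 the pair read 12.22 and 10.49, for Pla2g2a 11.65 and 10.19, and for Mmp7 10.04 and 9.01 on the log2 scale. The granule genes that these arrays moved most are given without each of them below.

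The mucosal pentraxins Mptx1 and Mptx2 and the lysozymes Lyz1 and Lyz2 are pairs of close copies. Their promoters are shown because 1 copy of the pentraxin pair passed the test below and the other did not. Near copies can also share signal on an array, which a comparison of promoters does not test. The 200 bases upstream of each annotated start are from RefSeq, build GRCm38.p6, 5′ to 3′ on the strand of the gene. Capitals mark CTTTGA or CTTTGT, the core bound by TCF/LEF factors of the Wnt pathway, on either strand. Mptx1 lies on the plus strand (chr1:174330318-174330517), Mptx2 on the minus strand (chr1:173277757-173277956), and Lyz1 (chr10:117292869-117293068) and Lyz2 (chr10:117282273-117282472) on the minus strand.
Mptx1: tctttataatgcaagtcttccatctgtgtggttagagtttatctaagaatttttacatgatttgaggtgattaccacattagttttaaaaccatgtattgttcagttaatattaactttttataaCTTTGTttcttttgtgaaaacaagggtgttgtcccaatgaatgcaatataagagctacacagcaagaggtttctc
Mptx2: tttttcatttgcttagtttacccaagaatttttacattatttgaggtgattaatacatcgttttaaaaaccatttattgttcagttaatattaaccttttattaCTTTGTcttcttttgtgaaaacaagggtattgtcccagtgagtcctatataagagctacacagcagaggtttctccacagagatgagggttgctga
Lyz1: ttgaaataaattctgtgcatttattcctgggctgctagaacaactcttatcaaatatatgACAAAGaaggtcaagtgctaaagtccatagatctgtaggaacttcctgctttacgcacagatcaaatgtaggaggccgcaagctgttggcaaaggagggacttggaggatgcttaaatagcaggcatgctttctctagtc
Lyz2: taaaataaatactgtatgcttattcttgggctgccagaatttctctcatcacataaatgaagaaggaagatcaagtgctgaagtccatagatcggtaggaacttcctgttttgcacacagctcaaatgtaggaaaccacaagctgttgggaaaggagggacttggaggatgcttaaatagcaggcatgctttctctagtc

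Over 187 aligned columns the Mptx1 and Mptx2 windows shared 160 bases (85.6%, with 10 gap columns). Both hold CTTTGT, with its first base at position −75 from the start of Mptx1 and −96 from that of Mptx2. The Lyz1 and Lyz2 windows shared 174 of 202 columns (86.1%), and of these only Lyz1 holds a match, on the opposite strand. Windows were found for 7 of the 9 genes, 8 windows in all because Mmp7 has 2 starts. None was found for Spink4 and Pla2g2a, and Itln1 is among the 7. Of these 8 windows 6 hold the core, against 22.5% of 32851 promoter windows of the same length. The 8 are not independent, since 2 belong to Mmp7 and those of Mptx1 and Mptx2 are near copies. A match is a description of the letters and not a bound site.

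Spink4 and Mptx1 rose with TUDCA, and no gene of the 8 fell. These were 2 of 9 probe sets higher and 0 lower at an adjusted p of 0.05 in limma, where 1% of all probe sets were higher and 1.52% lower, 2.52% in all. At an unadjusted p under 0.05 the count was also 2 higher, against 7.24% of all probe sets. The median log2 difference of the 9 probe sets was 0.21, beside 0.01 over all probe sets, and 7 of 9 differences were above 0, beside 53.3% of all. The genes were chosen with earlier results of these data known, so these shares describe them and are not independent evidence. Differences are TUDCA minus vehicle on the log2 scale throughout.

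Spink4, a Kazal-type serine protease inhibitor of secretory epithelial cells, had log2 values from 10.11 to 11.10 (median 10.54) on the vehicle arrays. On the TUDCA arrays it ran from 11.18 to 11.76 (median 11.37). Every TUDCA array was above every vehicle array, a separation in the direction of TUDCA that 0.8% of all probe sets showed. The difference was 0.86 ± 0.16 (SE, n = 6 per group, 95% interval 0.52 to 1.20, adjusted p = 0.0101 in limma), a 1.82-fold rise. In the low range alone it was 1.05 (adjusted p = 0.0126 in limma), and in the high range alone 0.67 (adjusted p = 0.357). Leaving out TUDCA replicate 2 gave 0.77 with an adjusted p of 0.0517 in limma, and leaving out vehicle replicate 5, the highest vehicle array, gave 1.09 with an adjusted p of 0.000445. Without vehicle replicate 6, the lowest, it was 0.72 (adjusted p = 0.0436 in limma).

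Mptx1 had log2 values from 4.19 to 4.87 (median 4.49) on the vehicle arrays and from 4.65 to 6.10 (median 5.59) on the TUDCA arrays. In TUDCA, 5 of 6 arrays were above the highest vehicle array, and replicate 3 at 4.65 lay inside the vehicle range. The difference was 1.04 ± 0.21 (SE, n = 6 per group, 95% interval 0.59 to 1.50, adjusted p = 0.0177 in limma), a 2.06-fold rise. The probe set was dim: on 11 of 12 arrays it read below the array's median, where differences are compressed. In the low range alone it was 1.54 (adjusted p = 0.005 in limma), and in the high range alone 0.55 (adjusted p = 0.519). Without TUDCA replicate 1 the adjusted p was 0.0859, and without replicate 2 it was also 0.0859, with differences of 0.97 and 0.87.

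**Figure D1:**
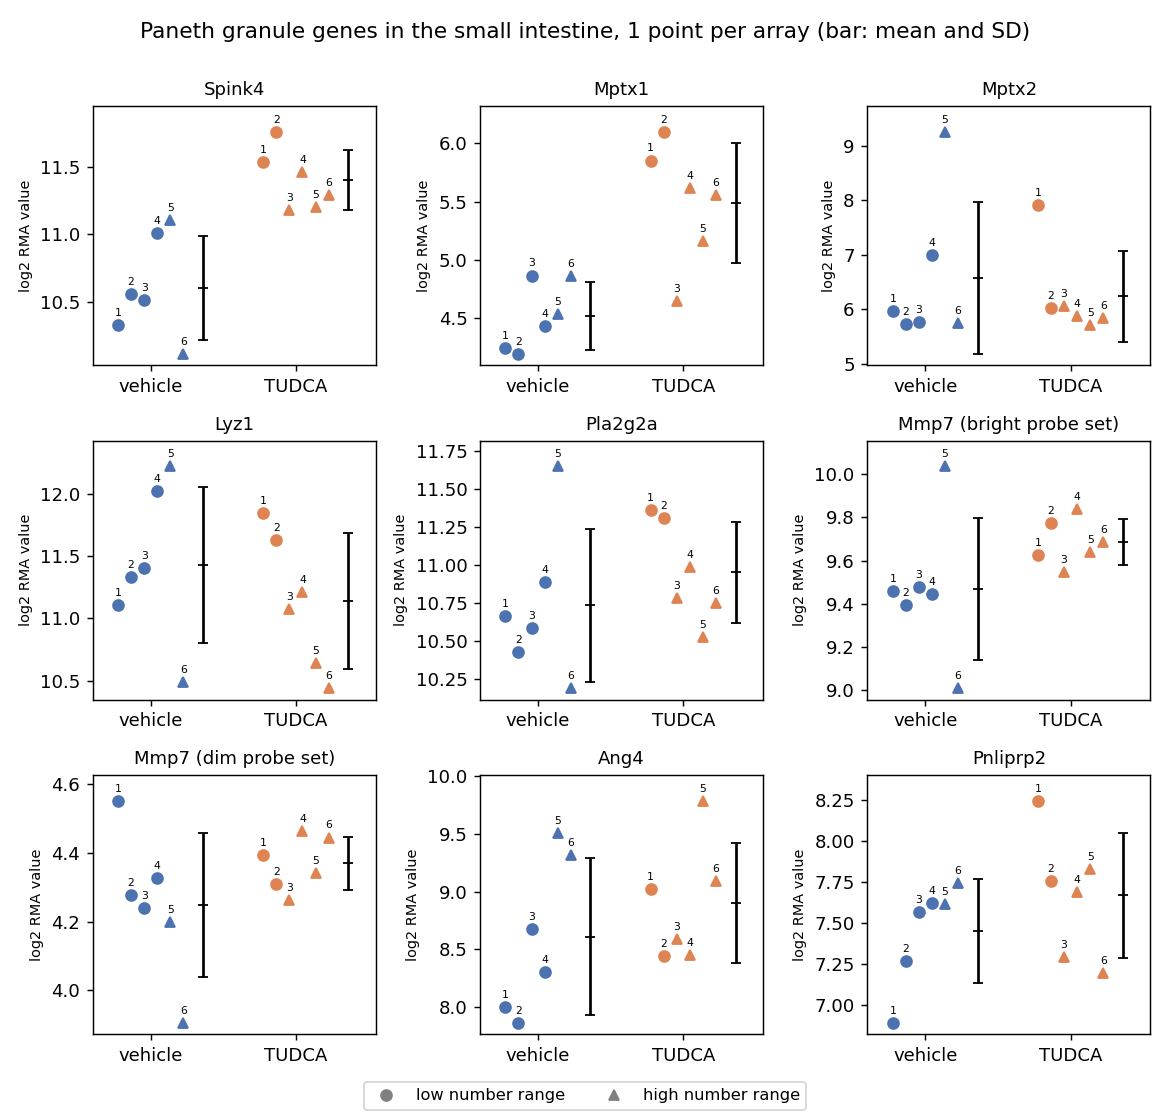
Deposited log2 values (vertical axes, scaled per panel) of the 9 probe sets on each array, vehicle in blue and TUDCA in orange, with replicate numbers, circles for the low and triangles for the high number range, and the group mean with SD beside the points. Spink4 separates the groups, with all TUDCA arrays at 11.18 or above and all vehicle arrays at 11.10 or below, while Mptx2 is set apart by vehicle replicate 5 at 9.26 and TUDCA replicate 1 at 7.91.

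Mptx2, the second mucosal pentraxin, did not pass the test. Its vehicle values ran from 5.74 to 9.26 (median 5.87) and its TUDCA values from 5.72 to 7.91 (median 5.95). Vehicle replicates 4 (7.0) and 5 (9.26) and TUDCA replicate 1 (7.91) stood above the other 9 arrays, which lay between 5.72 and 6.06. The difference was −0.39 ± 0.58 (SE, 95% interval −1.64 to 0.86, adjusted p = 0.829 in limma), and it was 0.58 without vehicle replicate 5, −0.74 without vehicle replicate 6 and −1.06 without TUDCA replicate 1. The change of Mptx1 relative to Mptx2 within arrays was 1.44 (adjusted p = 0.153, exact permutation), so a difference in response between the copies was not shown.

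The enzymes of the granule that act on bacteria did not pass. Lyz1, the Paneth cell lysozyme that cleaves the bacterial cell wall, ran from 10.49 to 12.22 (median 11.37) on vehicle arrays and from 10.44 to 11.85 (median 11.14) on TUDCA arrays. The groups overlapped over nearly their whole range, with a difference of −0.12 ± 0.27 (SE, 95% interval −0.70 to 0.46, adjusted p = 0.898 in limma). Without vehicle replicate 5 it was 0.30 (adjusted p = 0.479), and without vehicle replicate 6 it was −0.35 (adjusted p = 0.735). Lyz2, the lysozyme of macrophages and the neighbour of Lyz1 in GRCm38.p6, averaged 10.97 ± 0.26 (SD, n = 6) on the TUDCA and 11.25 ± 0.09 (SD, n = 6) on the vehicle arrays, a difference of −0.31 ± 0.11 (SE, adjusted p = 0.176). Cross-hybridisation between the 2 lysozymes was not tested. Of 10 macrophage markers, Lyz2 among them, 0 passed in either direction. At an unadjusted p under 0.05 in limma, 1 was higher and 2 were lower, of which Lyz2 was 1. Of all probe sets 7.24% were higher and 6.84% lower at that level. Of their differences 9 were below 0, beside 46.7% of all probe sets, and the median was −0.20, beside 0.01 over all.

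Pla2g2a, the secreted phospholipase A2 that attacks bacterial membranes, ran from 10.19 to 11.65 (median 10.63) under vehicle and from 10.53 to 11.36 (median 10.88) under TUDCA. The difference was 0.27 ± 0.22 (SE, 95% interval −0.20 to 0.73, adjusted p = 0.653 in limma). Vehicle replicate 5 held the highest value of all 12 arrays, and without it the difference was 0.65 (adjusted p = 0.00351). Without vehicle replicate 6, the lowest, it was 0.0995 (adjusted p = 0.934), and without TUDCA replicate 1 it was 0.15 (adjusted p = 0.881). In the low range alone it was 0.69 (adjusted p = 0.0171), and in the high range alone −0.16. The gene is known to carry a natural frameshift in C57BL/6 mice, to which the C57BL/6N donors belong, and an intact reading frame in BALB/c. RefSeq's C57BL/6J assembly lists 1 transcript and 0 proteins for it. Transcripts of host epithelium and of donor cells are not separated on these arrays. Of its relatives, Pla2g2c, Pla2g2d, Pla2g2e and Pla2g2f differed by 0.10, 0.05, 0.01 and 0.10, with an adjusted p of 0.761 or more.

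Mmp7, the protease that activates alpha-defensins, read from 9.01 to 10.04 (median 9.45) under vehicle and from 9.55 to 9.84 (median 9.66) under TUDCA on its brighter probe set. The 6 TUDCA arrays lay within the span of the vehicle arrays, which vehicle replicates 5 and 6 set, and the SD was 0.11 against 0.33. The difference was 0.21 ± 0.13 (SE, 95% interval −0.08 to 0.49, adjusted p = 0.537 in limma), and 0.41 without vehicle replicate 5 (adjusted p = 0.0209). Without vehicle replicate 6 it was 0.026 (adjusted p = 0.968). Its dimmer probe set, below the array median on all 12 arrays, ran from 3.91 to 4.55 under vehicle and from 4.26 to 4.46 under TUDCA (difference 0.16 ± 0.10 SE, adjusted p = 0.482). The probe sets had the same sign.

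Ang4, a ribonuclease of the angiogenin family with microbicidal activity, ran from 7.86 to 9.5 (median 8.49) under vehicle and from 8.45 to 9.79 (median 8.81) under TUDCA. The difference was 0.05 ± 0.25 (SE, 95% interval −0.48 to 0.57, adjusted p = 0.964). In the vehicle group both high-range arrays (9.5 and 9.32) were above all 4 low-range arrays (7.86 to 8.68). Its relatives Ang2 and Ang6 were dim, with vehicle means of 2.44 and 3.64, and did not pass (adjusted p of 0.67 and 0.47).

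Pnliprp2, a lipase related to pancreatic lipase, ran from 6.89 to 7.74 (median 7.59) under vehicle and from 7.20 to 8.24 (median 7.72) under TUDCA. The groups overlapped, with a difference of 0.24 ± 0.18 (SE, 95% interval −0.15 to 0.63, adjusted p = 0.622). Omission of single arrays gave 0.046 (without TUDCA replicate 1) to 0.37 (without vehicle replicate 6). In the low range alone it was 0.66, and in the high range alone −0.18. Of 14 measured genes of pancreatic acinar cells, the main source of this lipase family, 0 passed. At an unadjusted p under 0.05 in limma the count was also 0, where 7.24% of all probe sets were higher and 6.84% lower. Their mean log2 value lay between 4.77 and 4.90 under TUDCA and between 4.73 and 4.86 under vehicle. The acinar relative Pnliprp1, the neighbour of Pnliprp2 in GRCm38.p6, was at 0.18 (adjusted p = 0.605).

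**Figure D2:**
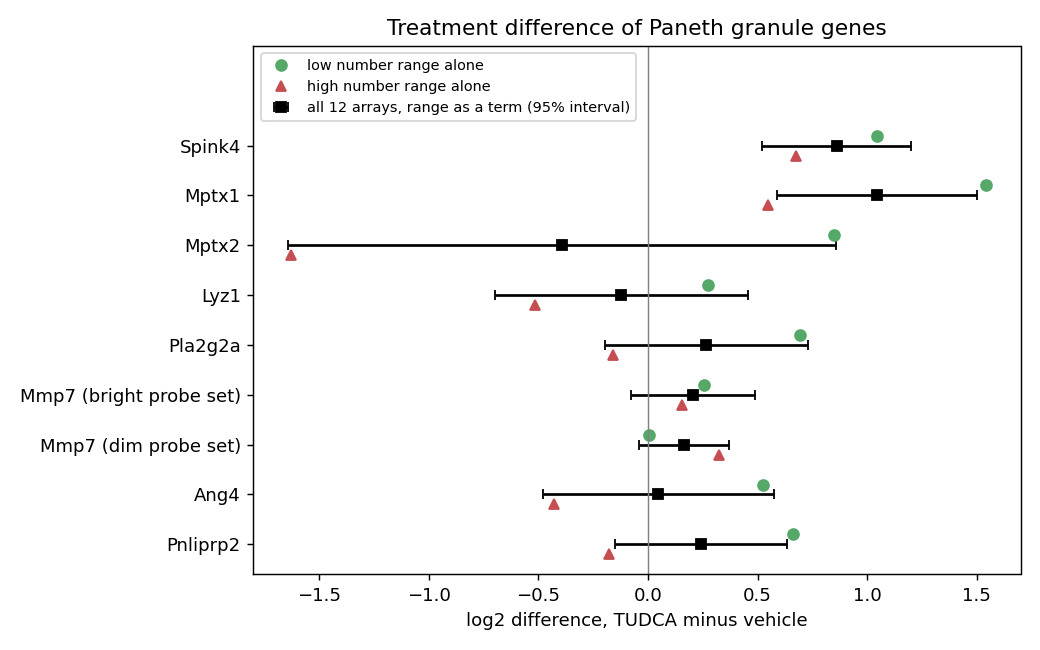
Log2 differences, TUDCA minus vehicle (horizontal axis), of the 9 probe sets: squares with 95% intervals from the fit of all 12 arrays, circles from the low and triangles from the high number range alone. The intervals of Spink4 (0.52 to 1.20) and Mptx1 (0.59 to 1.50) lie above 0, and the triangles of Mptx2, Lyz1, Pla2g2a, Ang4 and Pnliprp2 lie below 0 while their circles lie above it.

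The ranges gave different pictures of these genes. In the low range alone the difference was above 0 for 8 of 8 genes, and Spink4, Mptx1 and Pla2g2a passed there (3 higher, 0 lower, where 0.704% of all probe sets were higher). In the high range alone it was above 0 for 3 genes, Spink4, Mptx1 and Mmp7, and none passed (0.025% of all probe sets were higher there). For Mptx2, Lyz1, Ang4, Pla2g2a and Pnliprp2 the sign was opposite in the ranges, and for 8 of 8 genes, Mmp7 by its brighter probe set, the low range gave the larger value. The dimmer Mmp7 probe set read 0.33 in the high range and 0.003 in the low range. The interaction of treatment and range passed for none of the 8 genes after adjustment (adjusted p of 0.582 or more in limma), and for 0% of all probe sets. At an unadjusted p under 0.05 it was met by 5 of 8 genes, Mptx1, Mptx2, Ang4, Pnliprp2 and Pla2g2a, against 7.68% of all probe sets. The high range rests on vehicle replicates 5 and 6. Without vehicle replicate 5, 4 of 9 probe sets were higher (Spink4, Mptx1, Pla2g2a and Mmp7) and 0 lower, where 1.16% of all probe sets were higher. Without vehicle replicate 6 the count was 2, without TUDCA replicate 1 it was 1, and without TUDCA replicate 2 it was 0. The share of all probe sets called on these omissions is not given here. Whether the lower counts are particular to the granule genes was therefore not tested.

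Whether Spink4 and Mptx1 changed apart from the other granule genes was tested on within-array log2 ratios of all 28 pairs of the 8 genes. The test was a two-sided exact permutation over 225 relabelings within the ranges, whose smallest p is 0.00444, adjusted over the 28 pairs. Spink4 rose relative to Lyz1 by 0.98, relative to Mmp7 by 0.65 and relative to Pla2g2a by 0.59 (adjusted p = 0.0415 for each, exact permutation). Leaving out any array gave 0.79 to 1.12, 0.60 to 0.71 and 0.45 to 0.71 for these. Mptx1 rose relative to Ang4 by 1.00 and relative to Pnliprp2 by 0.80 (adjusted p = 0.0498 for each, exact permutation). The other 23 pairs did not pass, among them Spink4 with Mptx1 (0.18, adjusted p = 0.682, exact permutation). In the plot of Spink4 against Lyz1 every TUDCA array lies above every vehicle array on the Spink4 axis, while the groups overlap on the Lyz1 axis.

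**Figure D3:**
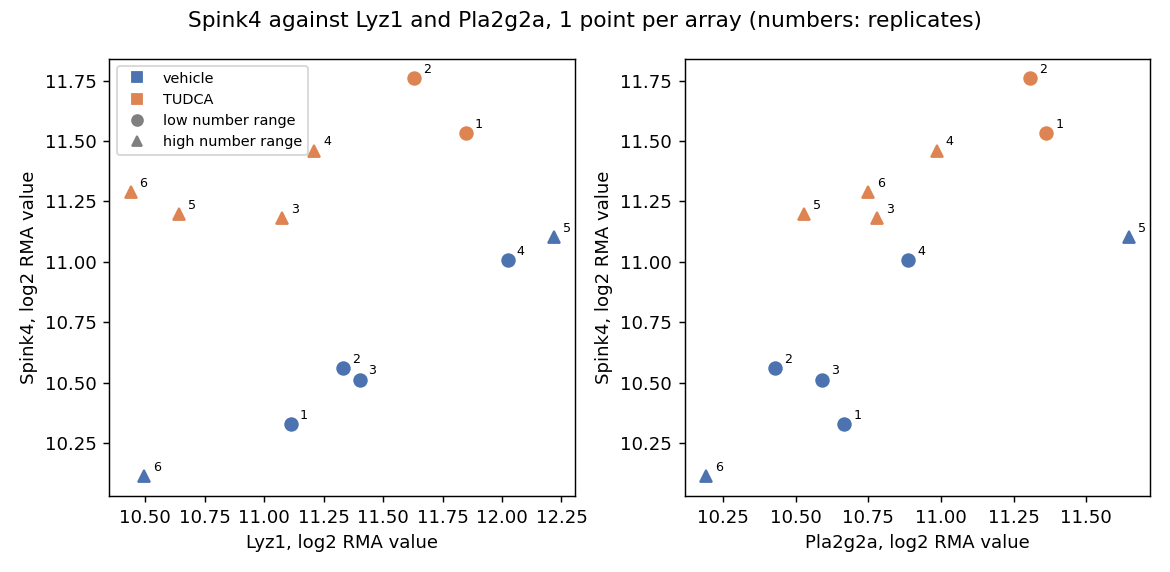
Spink4 (vertical axes) against Lyz1 (left) and Pla2g2a (right), log2 values, 1 point per array with its replicate number, TUDCA in orange and vehicle in blue, circles for the low and triangles for the high number range. All TUDCA arrays lie at Spink4 values of 11.18 or more, also where Lyz1 is low (replicate 6, Lyz1 at 10.44), and vehicle replicates 5 and 6 mark the ends of the vehicle points.

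After removal of the mean of each treatment and range, some granule genes had high correlations from array to array, but no pair passed after adjustment. Over the 12 arrays, Lyz1 followed Pla2g2a (Pearson r = 0.90, adjusted p = 0.31; Spearman rho = 0.78, adjusted p = 0.595) and Spink4 (r = 0.88, adjusted p = 0.31; rho = 0.62, adjusted p = 0.839), by exact permutation within those groups and adjusted over 28 pairs. Neither relation passed. Both leaned on vehicle replicates 5 and 6, without which r was 0.70 and 0.69. These 2 arrays form a group of their own, so the permutation could only exchange them with each other. It therefore cannot decide on relations that rest on these arrays. Mmp7 and Pla2g2a had r = 0.92 (adjusted p = 0.554, exact permutation; rho = 0.48, adjusted p = 0.839), and 0.42 without those arrays. Mptx2 and Pla2g2a had the smallest adjusted p of the 28 pairs. Their r was 0.87 (adjusted p = 0.182) and their rho 0.87 (adjusted p = 0.0851, exact permutation for both). Without those arrays r was 0.51. For Mptx1, r with Lyz1 was −0.23 and with Mptx2 −0.32 (adjusted p = 0.883 and 0.621; rho −0.13 and −0.28, adjusted p = 0.839 for both, exact permutation). Without vehicle replicates 5 and 6 the first was −0.07, and without TUDCA replicate 3 and vehicle replicate 3 the second was −0.36. Mptx1 with Mmp7 had r = 0.02 (adjusted p = 0.957, exact permutation; rho = 0.35, adjusted p = 0.839), and r = 0.80 without vehicle replicates 5 and 6.

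The nearest genes over the 12 arrays were sought after the same removal of means, among probe sets naming 1 gene. The granule genes and genes with clone-style names, such as Gm or Rik names, were left out. Nearest to Spink4 were Creb3l4 (r = 0.97), Mir346 (0.96) and Upk2 (0.96). For Pla2g2a the nearest 3 held an alpha-defensin, Defa34 (r = 0.96), beside Mir124-2hg and Fam174b. For Lyz1 they were Ybx3, Rpl4 and Nsun5 (0.97 each). Each is the highest of very many correlations over 12 arrays and describes those arrays alone.

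The alpha-defensins, the main antimicrobial peptides of the granule, did not pass the test, and most of their differences were below 0. Of 47 defensin names listed, 10 had a probe set of their own, and 3 further probe sets that name several defensins were left unnamed. None of the 10 passed in either direction in limma. At an unadjusted p under 0.05, 4 were lower and 0 higher (6.84% of all probe sets were lower at that level). A total of 9 of 10 differences were below 0, beside 46.7% of all probe sets, and the median was −0.35, beside 0.01 over all. Defa39 had the largest difference, −1.12 ± 0.43 (SE, adjusted p = 0.235), where the TUDCA arrays averaged 7.10 ± 0.77 (SD, n = 6) and the vehicle arrays 8.45 ± 1.03 (SD, n = 6). Defa35 and Defa41 differed by −0.71 ± 0.27 and −0.74 ± 0.28 (SE, adjusted p = 0.219 and 0.225).

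The defensins too depended on the high range. Differences were below 0 for 6 of 10 in the low range alone and for 9 of 10 in the high range alone. Vehicle replicate 5 read 12.32 for Defa35, 10.10 for Defa41 and 10.02 for Defa39, above every other array. Without it 7 of 10 differences were below 0, the median was −0.13, and 0 had an unadjusted p under 0.05. The genes of this family are near copies of each other, so signal may be shared between their probe sets.

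**Figure D4:**
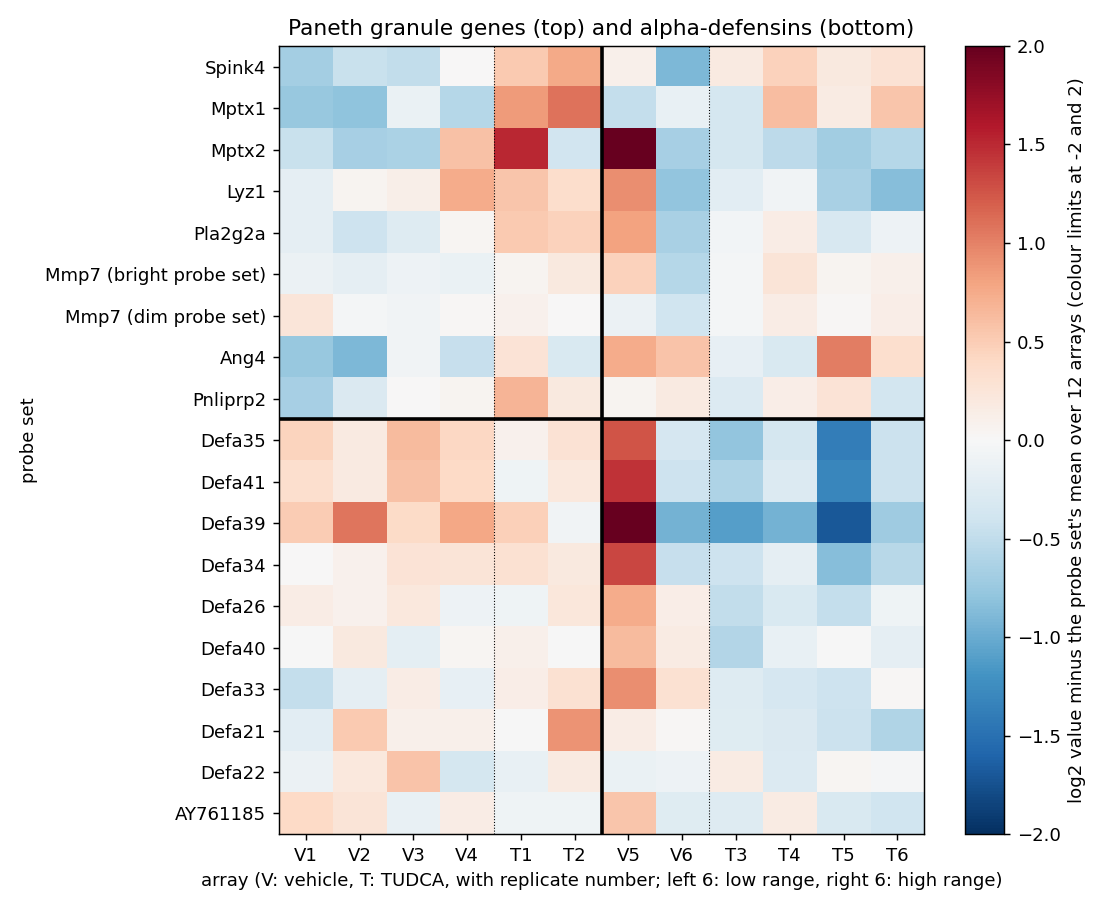
Log2 value of each probe set minus its mean over the 12 arrays (colour, red above and blue below, limits at -2 and 2), with the granule genes above and 10 alpha-defensins below the horizontal line, the low range left and the high range right of the thick vertical line. The column of vehicle replicate 5 is red for most rows, and the 4 TUDCA arrays of the high range are blue for Defa35, Defa41 and Defa39 but not for Spink4. Vehicle replicate 6, of the same range, is blue for these defensins too (10.73, 8.24 and 6.83), and also for Spink4.

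Other products and markers of Paneth cells showed 1 gene higher and 0 lower of 20 measured. For this and the lists that follow, 1% of all probe sets were higher and 1.52% lower. Tspan1, a tetraspanin, rose by 0.43 ± 0.08 (SE, adjusted p = 0.0145), a call that was lost on omission of TUDCA replicate 1 or 2 (highest adjusted p 0.066). The bactericidal lectins were below 0 without passing: Reg3a at −0.77 ± 0.25 (SE, adjusted p = 0.152), Reg3g at −0.45 ± 0.16 (SE, adjusted p = 0.197) and Reg3b at −0.46 ± 0.17 (SE, adjusted p = 0.223). Rnase1 was at −0.40 (adjusted p = 0.155) and Sntb1 at −0.27 (adjusted p = 0.192). The median over the 20 was 0.03.

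Of 22 measured genes of Paneth cell fate and the crypt niche, 1 rose and 0 fell. The gene that rose was Spdef, a transcription factor that drives goblet and Paneth cell maturation, at 0.38 ± 0.08 (SE, adjusted p = 0.0145, lost on omission of TUDCA replicate 1 or 2, highest adjusted p 0.0711). Sox9, required for Paneth cell formation, was at −0.01 ± 0.10 (SE, adjusted p = 0.99), with a 95% interval of −0.22 to 0.21. Atoh1, the factor that commits cells to the secretory lineage, was at 0.24 ± 0.11 (SE, adjusted p = 0.321), and Gfi1 and Xbp1, which act downstream in secretory cells, were at −0.08 ± 0.13 and 0.06 ± 0.12 (SE). The Notch ligand Dll4 was at −0.48 ± 0.13 (SE, adjusted p = 0.0749). Creb3l1, a transcription factor of secretory cells, was at 0.40 ± 0.13 (SE, adjusted p = 0.151), and Ern1, a sensor of unfolded protein in the endoplasmic reticulum, at −0.18 ± 0.07 (SE, adjusted p = 0.237). The median over the 22 was 0.04.

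Of 11 goblet cell markers measured, 4 rose and 0 fell, against 1% and 1.52% of all probe sets: Capn9 by 0.51 ± 0.09 (SE, adjusted p = 0.00776, and 0.0781 in a fit without the number range), Bcas1 by 0.59 ± 0.13 (SE, adjusted p = 0.0235), Agr2 by 0.56 ± 0.13 (SE, adjusted p = 0.0342) and Spdef. The list was chosen with earlier results of these data known, so this count describes the list and is not independent evidence. Agr2 lost its call on omission of any 1 of 9 arrays (highest adjusted p 0.148) and in a fit without the number range (adjusted p = 0.112). Bcas1 lost its call on omission of TUDCA replicate 1 or 2 or vehicle replicate 6 (highest adjusted p 0.0948). The list's mean log2 value lay between 10.26 and 10.69 under TUDCA and between 9.79 and 10.35 under vehicle, and no marker was near the lower end of the arrays (means from 6.55 to 12.95). Of the 11 differences 10 were above 0, beside 53.3% of all probe sets, and the median was 0.28. At an unadjusted p under 0.05 in limma, 8 were higher and 0 lower (7.24% of all probe sets were higher at that level). Muc2, the main mucin, was at 0.27 ± 0.12 (SE, adjusted p = 0.3), and Fcgbp and Clca1, proteins of the mucus, at −0.05 ± 0.17 and 0.006 ± 0.13 (SE). The part of goblet cells in the rise of Spink4 was not tested.

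Position along the gut was checked because Paneth products differ between segments. Of 8 ileum probe sets, which name 7 genes, 0 were higher and 1 lower, Clec2h at −0.30 ± 0.06 (SE, adjusted p = 0.0158, and up to 0.0843 on omission of TUDCA replicate 1 or 2). Of these differences 8 of 8 were below 0, beside 46.7% of all probe sets, and the median was −0.19. Slc10a2, the bile acid transporter of the ileum, had a 95% interval of −0.18 to 0.17, and Fabp6, the ileal bile acid binding protein, was at −0.04 ± 0.11 (SE). The 2 probe sets of Fgf15, another ileum marker, were at −1.06 ± 0.55 and −0.26 ± 0.17 (SE, adjusted p = 0.412 and 0.555 in limma). In the high range alone they were at −2.30 and −0.64, and in the low range alone at 0.18 and 0.11. The mean of the ileum list lay between 9.70 and 10.33 under TUDCA and between 10.21 and 10.55 under vehicle, with the 4 lowest values on the TUDCA arrays of the high range. Of 10 proximal probe sets 0 passed. At an unadjusted p under 0.05 in limma 3 were lower and 0 higher, where 6.84% of all probe sets were lower. Of their differences 8 were below 0, beside 46.7% of all, with a median of −0.15. Their mean lay between 5.71 and 5.84 under TUDCA and between 5.82 and 6.15 under vehicle. Slc40a1 had the smallest p of them, at −0.89 ± 0.25 (SE, adjusted p = 0.0795 in limma). Of 8 colon probe sets 1 was higher, Car1 at 1.29 ± 0.28 (SE, adjusted p = 0.0233, and up to 0.105 on omission of TUDCA replicate 2 or vehicle replicate 6). The part of sampling position in the results was not tested.

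Cytokine and receptor genes that act on secretory cells were measured beside the granule genes. Of 18, 0 rose and 1 fell, Il22ra1, the epithelial receptor subunit for interleukin-22, at −0.34 ± 0.08 (SE, adjusted p = 0.0343), which lost its call on omission of any 1 of 8 arrays (highest adjusted p 0.153). Interferon gamma, which drives Paneth cell degranulation, had its gene Ifng at −0.30 ± 0.10 (SE, adjusted p = 0.16). Tnf, encoding an inflammatory cytokine, was at −0.43 (adjusted p = 0.124), and Il17ra, a receptor subunit for interleukin-17, at −0.27 (adjusted p = 0.263). Stem cell markers showed 0 of 6 higher and 0 lower, with Lgr5 at 0.38 ± 0.13 (SE, adjusted p = 0.183). Enterocyte markers showed 0 of 9 higher and 1 lower, Anpep (lost on omission of TUDCA replicate 1, adjusted p = 0.1), and neutrophil markers 1 of 10 higher, Ly6g (lost on omission of TUDCA replicate 1 or 2 or vehicle replicate 6, adjusted p up to 0.0902), and 0 lower.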

How the data were processed

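RNA of 12 small intestine samples was measured on 12 Affymetrix arrays. The deposited values are log2, one for each probe set on each array. Per the submitters' processing notes they were made with oligo and RMA, whose versions are not given in the sources used here. Array medians ran from 5.90 to 5.95. RMA makes arrays alike in distribution, and no detection calls were used here, so dim genes have compressed differences. Gene names came from the platform's annotation (21557 probe sets name 1 gene, 787 several, 1647 none), and RefSeq GRCm38.p6 gave promoters.

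The fit covered all 23991 probe sets and used R 4.3.3 with limma 3.58.1 (lmFit, then eBayes with trend, treatment and number range as terms, Benjamini-Hochberg over all, two-sided, threshold 0.05), checked on simulated data. Within-array ratios and correlations were tested by exact permutation, and sequences aligned with Biopython 1.88. The members and lists were chosen with earlier results of these data known. Genes outside the 9 were named where a list's gene passed, by smallest p (up to 4 per list), by nearest correlation (3 per probe set), as paralogs, or, after values were seen, as well-known markers of a list (Sox9, Atoh1, Gfi1, Xbp1, Reg3b, Reg3g, Muc2, Fcgbp, Clca1, Slc10a2, Fabp6, Lgr5, Pnliprp1). Alternatives were other covariates, ranges alone, a filter on dim probe sets, other scalings and variance models, array weights, gene means, a threshold of 0.1 and omission of each array.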

Additional observations from a re-analysis of the deposited data

Results flagged for a closer look

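Each group of 6 arrays was checked for a highest or lowest value far from the others in the 9 probe sets, 18 checks in all, of which chance flags about 1 in 20. Both values that stood out were of Mptx2. TUDCA replicate 1 read 7.91 where the other TUDCA arrays lay between 5.72 and 6.06, and vehicle replicate 5 read 9.26 where the other vehicle arrays lay between 5.74 and 7.0.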

How the results depend on the processing

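The 2 granule probe sets past the threshold became 1 under the replicate block fitted beside the range (Spink4 kept its call, and Mptx1 was at 1.21 with an adjusted p of 0.0612 in limma), 1 when probe sets under the median were left out, which removes Mptx1, and 0 in the high range alone. Omission of single arrays gave counts from 0 to 4. The labels do not say whether replicate numbers pair the samples. After removal of the group means, same-numbered arrays correlated from −0.06 to 0.26, above 0.1 for 3 of 6 numbers. Differently numbered arrays were not compared, so these values do not settle the pairing. The block without the number range left 2. Of the other list genes, the block beside the range also ended the calls of Tspan1 (adjusted p = 0.0659 in limma), Spdef (0.124), Clec2h (0.0725), Il22ra1 (0.0707), Anpep (0.107) and Ly6g (0.1). The alpha-defensin count was 0 under every alternative run, with 0 to 0 on omission of single arrays. The count of fate and niche genes, 1 in the report, was 0 with the block and the range together and in the high range alone, and 2 with the block without the range, in the low range alone, with array weights and at a threshold of 0.1. Omission of single arrays gave 0 to 2. The interaction count of the members was 0 with and without the trend.

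Signs turned for genes that had not passed. In the low range alone Mptx2 was at 0.85 and Lyz1 at 0.27. In the high range alone Ang4 was at −0.43, Pnliprp2 at −0.18 and Pla2g2a at −0.16. With array weights Mptx2 was at 0.11 and Lyz1 at 0.10. On omission of single arrays the difference ran from −1.06 to 0.58 for Mptx2, from −0.35 to 0.30 for Lyz1 and from −0.18 to 0.20 for Ang4, which turned on 4 of 12 omissions, to −0.18, −0.05, −0.01 and −0.03. The cause was not tested beyond these values. Spink4 ran from 0.72 to 1.09 and Mptx1 from 0.87 to 1.23. Renewed quantile normalization, centring and the variance models changed no call of the 9 probe sets. The number of arrays limits precision.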
